A study of Saccharomyces cerevisiae with 2 samples.

Results

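J-domain proteins are co-chaperones of Hsp70. Each carries a J domain with which it stimulates ATP hydrolysis by an Hsp70, and most bring the Hsp70 to a particular client or place. In the yeast cytosol and nucleus they serve general folding and degradation (Ydj1, Sis1, Caj1, Apj1), delivery of precursors to organelles (Djp1, Xdj1), the ribosome (Zuo1, Jjj1), diphthamide synthesis (Jjj3) and the uncoating of clathrin vesicles (Swa2). The 10 genes described here, *CAJ1*, *YDJ1*, *SIS1*, *XDJ1*, *APJ1*, *DJP1*, *ZUO1*, *JJJ1*, *JJJ3* and *SWA2*, were taken as J-domain genes of cytosol and nucleus, out of 5094 genes with a probe. They were picked after *CAJ1* had been seen among the lowest genes of these same arrays, so their values are a description and were not tested.

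The values come from genetic interaction mapping in *Saccharomyces cerevisiae*, read on 2 two-colour barcode arrays. A pool of barcoded DAmP strains, whose alleles lower the mRNA of a gene through its 3′ end, was crossed with a query strain, and haploid double mutants of BY4742/BY4741 background grew for 18 generations in G418 and nourseothricin. Barcodes of the query pool were labelled with Cy3, those of the reference pool with Cy5. As the deleted query gene, titles have *PIH1* but the sample descriptions have *RSA1*. The Pih1 protein belongs to R2TP, a co-chaperone of Hsp90 for the assembly of small nucleolar particles, in which Rsa1 also takes part. Nothing in the labels says whether the arrays came from separate crosses, so the spread between arrays may in part be technical.

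Each value is the log ratio of both channels, read as log2 and centred on the array's median, averaged over the probes of a gene. The direction, query pool over reference pool, is likely rather than stated. Its basis is that double mutants of linked genes are rare. The 34 genes within 50 kb of *PIH1* had a median of -1.01, and 30 of them were negative by mean. *PIH1* itself went the other way, with a mean of 1.01 ± 0.01 (SD), and the reason was not tested. The 42 genes within 50 kb of *RSA1* had a median of 0.04. A negative ratio thus likely stands for fewer double mutants in the query pool. Genes within 100 kb of either locus were kept out of the genes tested, which left 4048; none of the 10 J-domain genes lay there. Barcodes name a gene only, so values of DAmP and other alleles of a gene cannot be told apart.

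Of the J-domain genes, *CAJ1* had by far the lowest ratio, *XDJ1* was below 0 on both arrays, and *SIS1*, *APJ1* and *DJP1* lay near 0. *JJJ3* was measured on array 1 alone. *YDJ1*, *ZUO1*, *JJJ1* (2 probes each) and *SWA2* (4 probes) had no value on either array. These 4 of 10 genes (40%) compare with 696 of all 5094 genes probed (13.7%), and nothing can be said here about the major cytosolic partner of Hsp70, the ribosome-bound members or the clathrin uncoating factor. Of the 5 genes with a value on both arrays, 1 was at or below -1 on both. Over all genes tested this held for 82 of 4048 (2.03%), and since *CAJ1* led to the choice of the family, nothing is read from the comparison. None of the 5 was at or above 1 on both arrays, against 259 of 4048 genes (6.40%). Without a limit, 2 of the 5 were negative on both arrays (33.9% of all genes tested), 1 was positive on both (34.7%) and 2 had opposite signs (31.4%), of which 0 were negative on array 1 and positive on array 2 (15.1%).

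**Figure D1:**
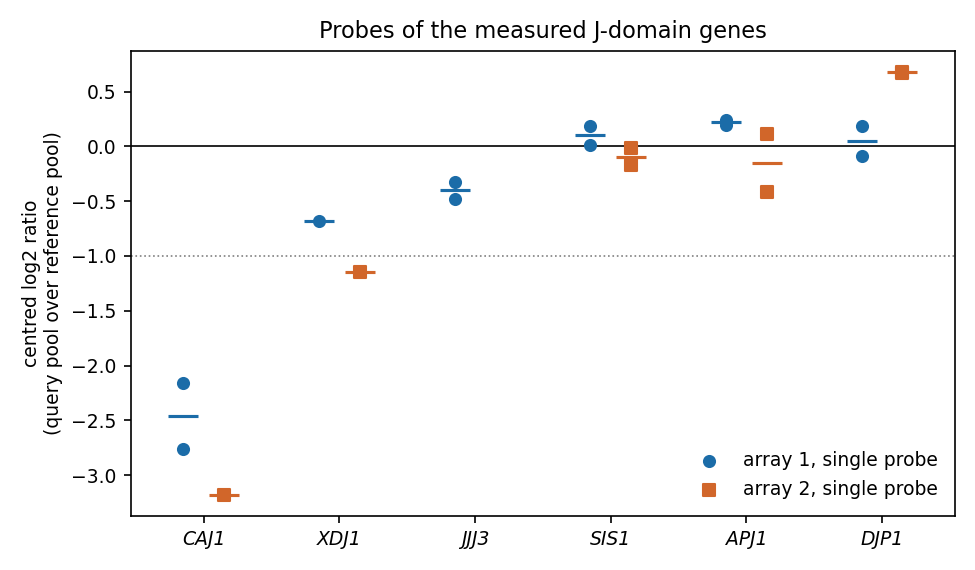
Centred log2 ratio, query over reference pool, on the y axis for each probe with a value of the 6 measured J-domain genes (x axis); circles are array 1, squares array 2, short bars the mean of the probes per array, and the dotted line is -1. The 3 *CAJ1* values lie between -3.18 and -2.16, and the probes of *SIS1*, *APJ1* and *DJP1* lie within 1 of 0.

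*CAJ1* encodes a nuclear and cytosolic J-domain protein that is thought to present non-native proteins to the Hsp70 Ssa3. Its ratio was -2.46 on array 1 and -3.18 on array 2. Both arrays thus had it low, with a mean of -2.82 ± 0.51 (SD, n = 2). If the values are log2 and run as query over reference pool, this is a 7.05-fold lower abundance in the query pool. With the ratio turned it would be 7.05-fold higher, and with a natural log the fold would be larger. It ranked 7 from the lowest of 4048 genes by mean, 16 on array 1 and 12 on array 2. It was among the 10 genes at or below -2 on both arrays.

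All 3 probe values of *CAJ1* were low. On array 1 the first stood at -2.16 and the second at -2.76. On array 2 the first probe stood at -3.18 and the second had no value. The gap of 0.60 between its probes on array 1 was wider than in 94.1% of the 2713 genes with 2 values there, whose median gap was 0.15. It was nevertheless small beside the ratio itself. The spread between arrays, 0.51, was larger than for 75.1% of genes, while the 30 genes with a mean at or below -2 had a median SD of 0.99. This spread sets the mean of 2 probes on array 1 against 1 probe on array 2. The only probe with a value on both arrays went from -2.16 to -3.18, a wider gap than between the array averages.

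The arrays differed in scale, array 2 being the wider. In units of each array's own median absolute deviation (as an SD), which was 0.35 on array 1 and 0.63 on array 2, *CAJ1* stood at -7.02 and -5.01. In these units *CAJ1* lay farther from the bulk of genes on the array with the smaller log2 ratio. By rank it was the reverse, with rank 16 on array 1 and 12 on array 2.

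*XDJ1* encodes a zinc-finger J-domain protein related to Ydj1 that acts at the mitochondrial outer membrane. It stood at -0.68 on array 1 and -1.15 on array 2, a mean of -0.92 ± 0.33. That is the second lowest value among the J-domain genes and rank 156 from the lowest of 4048 in the direction used here. These values come from different probes, since each of its 2 probes had a value on 1 array only. This was the case for 10 of the 4048 genes. *XDJ1* therefore has no probe by which both arrays can be compared. On each array's own scale it stood at -1.94 and -1.82, and 4.89% of genes were lower on array 1 and 4.13% on array 2.

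*SIS1* encodes an essential J-domain protein of the Ssa Hsp70s, required for prion propagation and for the degradation of misfolded proteins. Its mean was 0.00 ± 0.14, from 0.10 on array 1 and -0.09 on array 2. Its probes stood at 0.02 and 0.18 on array 1 and at -0.17 and -0.01 on array 2. It thus lay in the middle of all genes, with 51.3% lower by mean.

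*APJ1* encodes a zinc-finger J-domain protein that takes part in the clearance of nuclear protein aggregates. It stood at 0.22 on array 1 and -0.15 on array 2 (mean 0.03 ± 0.26), so the arrays had opposite signs, as for *SIS1*. Its probes stood at 0.24 and 0.19 on array 1 but at -0.42 and 0.11 on array 2.

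*DJP1*, whose product helps deliver proteins to peroxisomes and mitochondria, was the highest of the J-domain genes. It stood at 0.05 on array 1 and 0.67 on array 2, a mean of 0.36 ± 0.44. Its probes were at -0.08 and 0.19 on array 1 and at 0.68 and 0.67 on array 2. The positive value thus comes from array 2, where 77.9% of genes were lower, against 56.3% on array 1.

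*JJJ3*, also called *DPH4*, acts in the synthesis of diphthamide, a modified histidine of elongation factor eEF2. Its probes stood at -0.48 and -0.32 on array 1, a mean of -0.40. Of the genes with a value on that array and outside both regions, 11.5% were lower. No replicate exists for this value.

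In order, *CAJ1* (-2.82) came first and *XDJ1* (-0.92) next, followed by *SIS1* (0.00), *APJ1* (0.03) and *DJP1* (0.36). The values of *CAJ1* did not overlap those of *XDJ1*, and those of *XDJ1* did not overlap those of *SIS1*. As *CAJ1* had been seen among the lowest genes beforehand, nothing is read from its separation. The values of *XDJ1* come from a different probe on each array. How often values fail to overlap between any pair of genes was not computed, so these gaps are a description only. *SIS1*, *APJ1* and *DJP1* had overlapping values and cannot be ordered. The median of the 5 genes was 0.00, beside -0.01 for all 4048 genes.

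**Figure D2:**
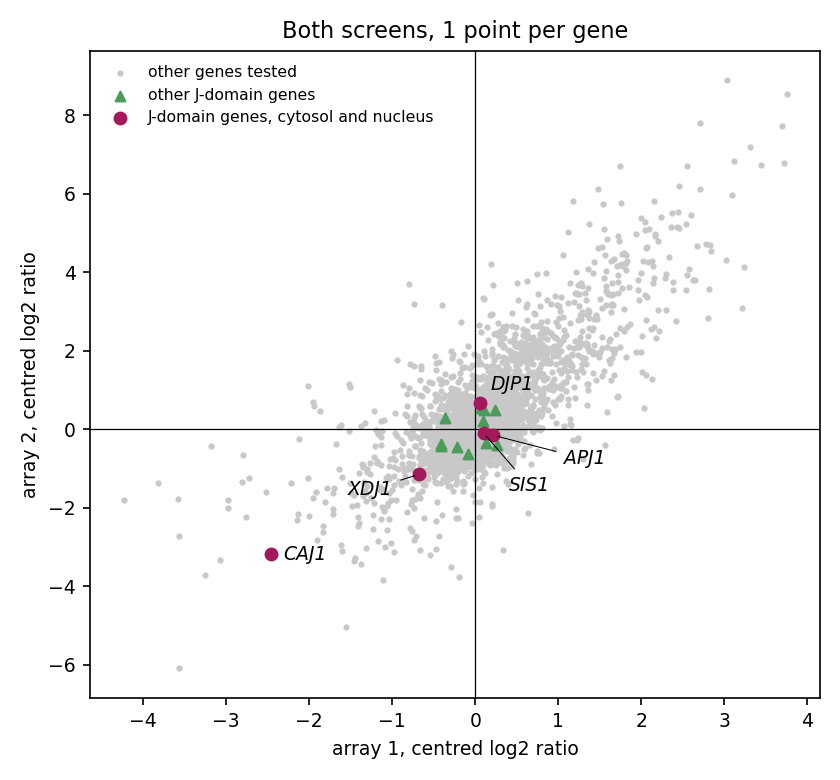
Centred log2 ratio on array 1 (x axis) against array 2 (y axis), 1 point for each of the 4048 genes tested; large circles are the 5 J-domain genes of cytosol and nucleus with a value on both arrays, and triangles 11 other J-domain genes. *CAJ1* lies apart at -2.46 and -3.18, and the triangles lie close to 0.

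Across all genes, limma with Benjamini-Hochberg adjustment called 0 of 4048 genes (0%; smallest adjusted p = 0.227), while 678 (16.7%) passed 0.05 before adjustment, 201 of them on the negative side. The J-domain genes were thus not called either. After the arrays were brought to a common scale the same test called 456 genes (11.3%) with a common median absolute deviation and 434 (10.7%) with quantile normalization. Of the J-domain genes *CAJ1* was called in both and *XDJ1* in the first only. As *CAJ1* was chosen on these arrays, its calls support nothing further. Of the pathway genes described below, *DPH1*, *EGD1* and *TOM70* were called under both scalings, and *SSA2* and *HSC82* after quantile normalization only. As no gene at all was called as centred, the absence of calls in a list below says nothing about that list. All lists were chosen with earlier results of these data known, so nothing is read from their counts.

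None of the other J-domain genes measured had a value as low as that of *CAJ1*. This list of 13 held genes of mitochondria (*MDJ1*, *MDJ2*, *PAM16*, *PAM18*, *JAC1*, *JID1*) and of the endoplasmic reticulum (*SCJ1*, *JEM1*, *SEC63*, *ERJ5*, *HLJ1*), along with *CWC23* and *JJJ2*. Both arrays gave a value for 11 of them, with means from -0.42 to 0.37 and a median of -0.06. None was called as centred. None was beyond 1 in either direction on both arrays, beside 2.03% of all genes at or below -1 and 6.40% at or above 1. *SCJ1*, of the endoplasmic reticulum lumen, was lowest at -0.42 and -0.43 on arrays 1 and 2, and *MDJ2*, of the mitochondrial inner membrane, next at -0.41 and -0.38. *JJJ2* was highest at 0.24 and 0.49, followed by *PAM16*, of the mitochondrial import motor, at 0.10 and 0.50. Over both lists, 16 J-domain genes were measured on both arrays. Of these, *CAJ1* was the only one at or below -1 on both, beside 2.03% of all genes. As *CAJ1* led to the choice of the family, nothing is read from this.

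The Hsp70s that J-domain proteins act on ranged widely. *SSA2*, one of the constitutive cytosolic Hsp70 genes, stood at -2.98 on array 1 and -2.01 on array 2 (mean -2.49 ± 0.69). It was the only one of the 7 genes tested of this list at or below -1 on both arrays, beside 2.03% of all genes. The list was chosen with earlier results known, so nothing is read from this count. *SSA1*, the close paralogue of *SSA2*, stood at -0.50 and -0.98. *SSA3*, the heat-inducible partner named for Caj1, stood at -0.10 and -0.49. *SSA4*, also heat-inducible, stood at 0.191 and 0.997. *SSB1*, whose product binds nascent chains, was highest at 0.04 and 1.88, a mean of 0.96 ± 1.30. Among nucleotide exchange factors *SSE2* stood at 0.17 and 0.73 and *SNL1* at -0.11 and -0.13. *SSE1* and *FES1* had no value, and *SSB2* had no probe. None of the 7 was called as centred, and *SSA2* was called after quantile normalization only.

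On the path by which Hsp70 hands clients to Hsp90, 4 of 6 genes tested were negative on both arrays, beside 33.9% of all genes. None was called as centred. The list was chosen with earlier results known, so nothing is read from this count. The Hsp90 gene *HSC82* stood at -1.40 and -1.11. The other Hsp90 gene, *HSP82*, lies within 100 kb of *RSA1*, was therefore not tested, and stood at -0.07 and -0.43. *STI1*, whose product bridges Hsp70 and Hsp90, stood at -1.35 and -0.91. *CPR6*, a cyclophilin gene, was highest at 0.75 and 1.06, followed by *CNS1*, of an essential Hsp90 co-chaperone, at -0.42 and 0.33. *SBA1* (-0.62 and -1.04) and *AHA1* (-0.18 and -0.17) were the other co-chaperone genes measured, and *CPR7* had no value. Of 6 disaggregation and sequestration genes none was called as centred. None of the 6 was beyond 1 on both arrays (2.03% of all genes at or below -1, 6.40% at or above 1). The means of the 6 ran from -0.33 for the disaggregase gene *HSP104* to 0.36 for *HSP31*. Between them lay *BTN2* at -0.26, *CUR1* at -0.27, *HSP42* at -0.22 and *HSP26* at -0.17. The arrays had opposite signs for *HSP42* (0.16 and -0.60), *HSP26* (0.08 and -0.41) and *HSP31* (-0.13 and 0.85). *HSP104*, *BTN2* and *CUR1* were negative on both.

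Of the diphthamide genes, the pathway of *JJJ3*, 4 were measured on both arrays, in a list chosen with earlier results of these data known. *DPH1*, which encodes a subunit of the enzyme of the first step, stood at -1.84 on array 1 and -2.61 on array 2 (mean -2.22 ± 0.55). Its partner gene *DPH2* stood at -0.27 and -0.98, the methyltransferase gene *DPH5* at -0.63 and -0.55, and *RRT2* (*DPH7*), of a later step, at -0.51 and -0.93. All 4 were thus negative on both arrays, beside 33.9% of all genes tested, with a median of -0.67 beside -0.01. None was called as centred, and 1, *DPH1*, was at or below -1 on both arrays, beside 2.03% of all genes. Since the list was chosen with earlier results known, nothing is read from these comparisons. *KTI11* and *DPH6* had no probe. *JJJ3* itself had a value on array 1 only, -0.40, and is not counted with these 4 genes.

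**Figure D3:**
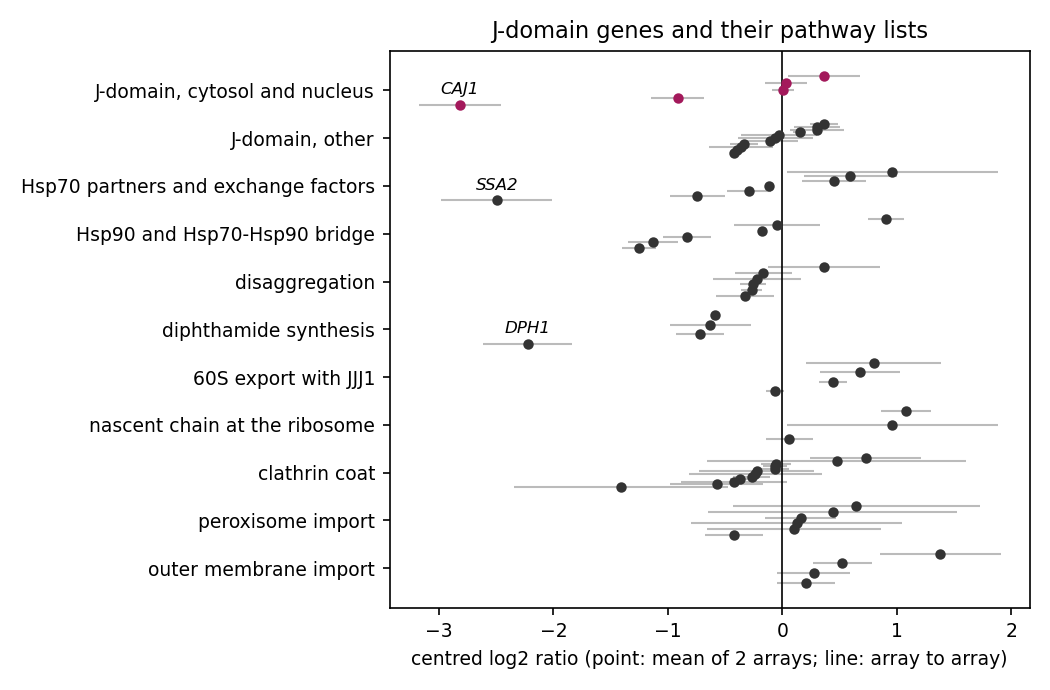
Centred log2 ratios (x axis) of the genes with a value on both arrays outside the *PIH1* and *RSA1* regions, by list (y axis); points are means of 2 arrays and grey lines join the values of the arrays. *CAJ1* (-2.82), *SSA2* (-2.49) and *DPH1* (-2.22) are the lowest genes shown. The 4 diphthamide genes lie below 0, in a list chosen with earlier results known.

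For the unmeasured ribosomal members, 3 of 4 genes tested in the list around Jjj1 were positive on both arrays, beside 34.7% of all genes. In the list around Zuo1 it was 2 of 3, and *SSB1*, among these, stood at only 0.04 on array 1. None was called as centred. The lists were chosen with earlier results known, so nothing is read from these counts. The genes *TIF6* and *EGD2*, with a value on array 1 only, were negative there. On the way of the large ribosomal subunit out of the nucleus, where Jjj1 acts with Rei1 to release Arx1, *NMD3* stood at 0.21 and 1.38, *ARX1* at 0.33 and 1.03, *LSG1* at 0.56 and 0.32 and *ALB1* at 0.01 and -0.14. *TIF6* had -0.61 on array 1 only, and *REI1* had no value. Zuo1 forms the ribosome-associated complex with the Hsp70 Ssz1, and *SSZ1* had no value either. Of nascent chain factors, *EGD1*, of the nascent polypeptide-associated complex, stood at 0.86 and 1.30 and its paralogue *BTT1* at -0.14 and 0.26. *EGD2*, of the same complex, had -0.50 on array 1 only.

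Clathrin genes, the setting of Swa2, had means from -1.41 to 0.73, and several differed between the arrays. The clathrin chain genes *CHC1* and *CLC1* had no value. Of 12 coat and adaptor genes tested none was called as centred, and the median was -0.23. None of the 12 was beyond 1 on both arrays (2.03% of all genes at or below -1, 6.40% at or above 1). Of the 12, 4 were negative on both arrays (33.9% of all genes) and 1 was positive on both (34.7%). A further 3 were negative on array 1 and positive on array 2 (15.1%), among them *ENT2* (-0.73 and 0.28) and *PRK1* (-0.82 and 0.35). The adaptor gene *APL4* was lowest at -0.47 and -2.35, a mean of -1.41 ± 1.33 that rests on array 2. *ARK1*, an actin patch kinase gene, stood at -0.17 and -0.98. The phosphatase gene *INP52* (-0.65 and 1.60) and the adaptor gene *GGA2* (0.24 and 1.21) were highest. *APM1*, of the same adaptor complex as *APL4*, had -1.55 on array 1 only.

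At the mitochondrial surface, where Xdj1 and Djp1 act, the receptor gene *TOM70* stood at 0.86 and 1.91 (mean 1.38 ± 0.74) and its paralogue *TOM71* at -0.05 and 0.46. The small translocase genes *TOM6* (0.27 and 0.78) and *TOM7* (-0.04 and 0.59) lay between them by mean. Of these 4 genes, 2 were positive on both arrays, beside 34.7% of all genes, and none was called as centred. The other 2 were negative on array 1 and positive on array 2, beside 15.1% of all genes. *TOM22*, *TOM20*, *TOM5* and *MIM1* had no value.

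The genes adjacent to a J-domain gene on its chromosome show whether a low or high value extended beyond the gene itself. Next to *CAJ1*, *SAP1*, an AAA ATPase gene, stood at 0.42 and 0.07, and *ISD11*, of iron-sulphur cluster assembly, at -0.05 and 0.39. Neither neighbour of *CAJ1* was low. *XDJ1* lay between *ALT1* (0.18 and 0.61) and *GEP5* (0.83 and 1.74), both positive on both arrays where *XDJ1* was negative. Beside *SIS1*, *LST8*, a gene of the TOR complexes, had -0.24 and -1.21, and *ASI3* had -0.07 and -0.34. *APJ1* was flanked by *NIS1* (0.32 and 0.55) and *MKS1* (0.35 and 1.20). *DJP1* lay next to *IST3*, a splicing factor gene with 1.74 and 4.80, and to *AIM21* at -0.21 and 0.20.

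**Figure D4:**
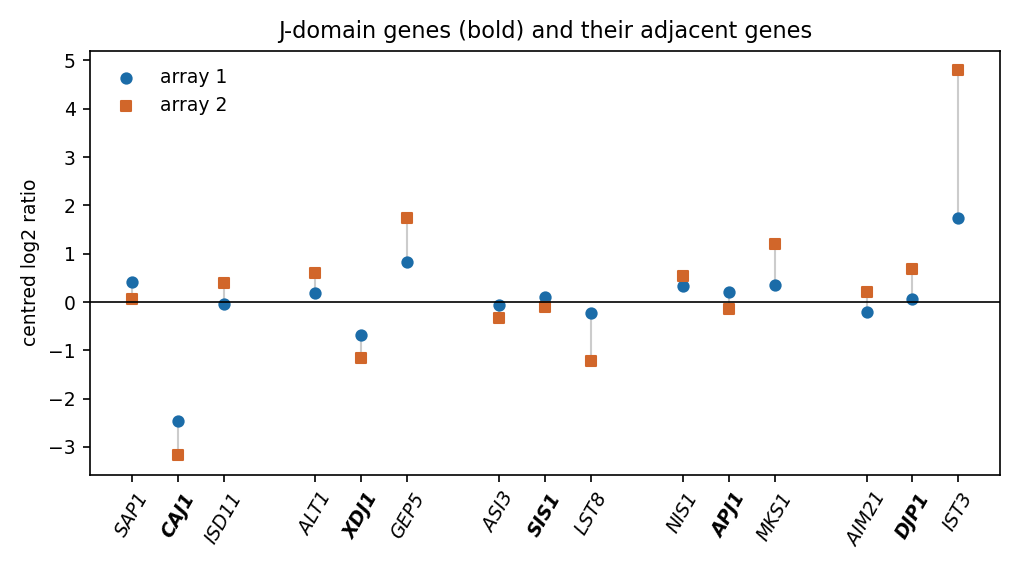
Centred log2 ratio (y axis) of the 5 J-domain genes with a value on both arrays (bold) and of the protein-coding gene on either side of each (x axis); circles are array 1, squares array 2, and grey lines join them. Both neighbours of *CAJ1* lie between -0.05 and 0.42.

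The unmeasured members had measured neighbours in most cases. Both neighbours of *YDJ1* (*AQR1* and *MTQ1*), both of *ZUO1* (*ERV29* and *BIO2*) and 1 of *SWA2* (*YFT2*) had means between -0.31 and 0.05. *URE2*, next to *JJJ1*, stood at 1.78 and 4.16. *CNM67*, the other neighbour of *JJJ1*, and *DAD4*, the other of *SWA2*, had probes but no value. *JJJ3* lay between *YJR096W* (-0.19 and -0.31) and *YJR098C* (0.09 and 0.36).

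By the distance between pairs of array values, the genes most like *CAJ1* among the 4048 were *RRP6*, *UFD2*, *DPH1*, *MCM1* and *MNR2*. *RRP6*, of the nuclear exosome, was nearest (distance 0.64 log2 units) at -3.08 and -3.33. *UFD2*, of ubiquitin chain elongation, followed (0.66) at -1.90 and -2.82, and then *DPH1* (0.84). *MCM1*, a transcription factor gene, stood at -1.60 and -3.10 (0.86) and *MNR2*, of vacuolar magnesium transport, at -1.62 and -2.95 (0.87). Only 9 genes lay within 1 log2 unit of *CAJ1*. Likeness over 2 arrays orders genes by their ratio and carries little more.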

How the data were processed

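The authors' deposited table gives 1 log ratio of both channels per probe and array, read here as log2 from its range (-4.79 to 3.91 on array 1, -6.36 to 9.40 on array 2). The sources used here give no base, centring, direction, background correction or normalization; a natural log would multiply every value by 1 constant. Of 15744 probes, 10998 had a value on array 1 and 10382 on array 2. The platform annotation named 1 gene for 13084 probes and none for 2660. Symbols were brought up to date with RefSeq genes of assembly R64, which served for names, neighbours and linkage alone; 2 of 5100 symbols matched no single gene. Arrays were centred on their medians (-0.06 and -0.27) and probes averaged per gene and array.

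Centred ratios of 4048 genes were fitted with limma 3.58.1 (R 4.3.3; intercept, eBayes, Benjamini-Hochberg at 0.05) against 0, so spread within the reference pool is not counted. Tested on simulated data of these 4048 genes with the fitted spread, the fit called 0.619% of unchanged genes, 38.6% of genes changed by 1 log2 unit and 94.6% by 2; in the data the spread grew with the ratio, so these shares are not those of real changes. The number of arrays limits the precision. Python 3.11.15 was used for the other steps.

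The members and lists were chosen with earlier results of these data known. Named genes were the 10 members, genes of the lists (the 2 lowest and 2 highest of each in any case), the genes adjacent to the members, the 5 nearest to *CAJ1*, and *PIH1*, the query by the titles, with *TAH1*, which encodes a partner of Pih1. Alternatives covered centring, scale between arrays, probe averaging, robust eBayes, linked genes and single arrays.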

Additional observations from a re-analysis of the deposited data

How the results depend on the processing

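*CAJ1* stayed the only J-domain gene at or below -1 on both arrays under every setting for centring, scale and probes that was run, and its ratio ran from -2.98 as deposited to -2.67 with probes that had a value on both arrays. From single arrays it was -3.18 and -2.46, and its rank was 12 and 16, against 7 by mean and 7 to 9 in the other settings. Without replicate 1, that is on array 2 alone, 2 members were at or below -1, *XDJ1* being the second; on array 1 alone there was 1. Limma called 0 genes as centred, 456 with the arrays at 1 median absolute deviation and 434 with quantile normalization; the cause was not tested. No gene was called by limma in the 5 other settings run, as deposited, with probe medians, with probes on both arrays, with robust eBayes and with linked genes kept. As deposited, *SIS1* had -0.16 and *APJ1* -0.13, so their sign is set by centring, which moves the mean of all genes by the same amount. *XDJ1* had no value with probes present on both arrays. No paired analysis was possible because there is a single group. Signal over background was not analysed here.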

Other observations

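Most import genes of peroxisomes, one destination of Djp1 clients, differed in sign between the arrays. Of 6 genes, 5 were negative on array 1 and positive on array 2, against 611 of all 4048 genes tested (15.1%). The same held for 2 of 4 outer membrane import genes and 3 of 12 clathrin genes, and for at most 1 gene in each other list. *PEX13* stood at -0.44 and 1.72, *PEX14* at -0.65 and 1.53 and *PEX5*, the receptor of the main targeting signal, at -0.80 and 1.05. *PEX8* stood at -0.66 and 0.87 and *PEX17* at -0.15 and 0.47, while *PEX7*, the receptor of the other signal, was negative on both at -0.17 and -0.67. A mean over both arrays hides this, since the list had a median of 0.14 by mean but -0.54 on array 1 and 0.96 on array 2. *DJP1* itself was positive on both, at 0.05 and 0.67. The pattern was noticed after the values were seen, and its cause was not tested.

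*PIH1*, in the middle of the low region used for the direction, was itself at 1.01 ± 0.01 (SD, n = 2). Its sign was thus opposite to that of the region's median, on which the direction rests, and the reason was not tested. Its R2TP partner gene *TAH1* stood at 0.01 and -0.04.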
